A study of Mus musculus with 12 samples.

Results

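The noncollagenous cartilage matrix genes described here code for matrix and secreted proteins typical of chondrocytes, with all collagens left out. They are Acan, Hapln1, Matn1, Matn3, Matn4, Cytl1, Ucma, Chad and Epyc, 9 of the 23284 genes in the table of gene counts, and were taken by symbol without use of any measured value. Their RNA was measured by sequencing of polyadenylated transcripts from whole mandibular condylar fibrocartilage, the cell-rich lining of the jaw joint's condyle. The study asked how 17β-estradiol (E2) acts on transcription in this tissue through estrogen receptor alpha. The 12 libraries fell into ERalphaKO mice under E2 (n = 3), ERalphaKO mice under placebo (n = 4), WT mice under E2 (n = 3) and WT mice under placebo (n = 2). Every animal was a female C57BL/6 mouse, ovariectomized at 16 weeks and sampled at 17 weeks of age, so the controls too lacked ovarian hormones. E2 came from a pellet of 0.01 mg with a 60-day release that was in place for 1 week, so the content is not the dose received. The knockout allele and the pooling of animals are not given in the sources used here, nor is it stated that replicates are separate mice, so p-values measure the spread between libraries.

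Aggrecan is the large proteoglycan whose chains of charged sugar draw water into cartilage, and link protein, the product of Hapln1, ties it to hyaluronan. Matrilins are adaptor proteins that connect collagen fibrils with proteoglycans, while chondroadherin (Chad) and epiphycan (Epyc) are leucine-rich matrix proteins, chondroadherin being known to bind collagen and integrins of chondrocytes. Cytl1 and Ucma code for small secreted proteins made by chondrocytes. In the condyle these genes belong to the cartilage layers beneath a fibrous surface, and the tissue as a whole therefore includes both.

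Total counts per library ranged from 9.70 to 28.8 M (the SI prefix mega), of which the 9 genes took 0.141% to 0.520%. The label of the tissue was met by its defining cartilage genes, since Col2a1, the main cartilage collagen, stood between 1156 and 14781 CPM (counts scaled to library size) and Sox9, the chondrocyte transcription factor, between 44.6 and 123 CPM. Esr1, the gene of the receptor, averaged 4.63 ± 0.949 CPM in ERalphaKO placebo libraries and 15.9 ± 2.35 CPM in WT placebo libraries (SD, n = 4 and 2), on the log2 scale a difference of -1.77 ± 0.20 (SE, adjusted p = 0.0252). Under E2 it averaged 5.33 ± 0.680 CPM in ERalphaKO and 10.4 ± 1.77 CPM in WT (SD, n = 3 each), with a log2 fold change of -0.97 ± 0.20 (SE) and an adjusted p of 0.0549. RNA of other tissues varied between libraries. The summed level of 10 granulocyte markers ranged from 16.5 to 6446 CPM in ERalphaKO E2, 17.5 to 15737 CPM in ERalphaKO placebo, 3.58 to 1034 CPM in WT E2 and 61.4 to 736 CPM in WT placebo, with Mpo, Elane, Ctsg and Camp at 0 in at least 1 library. The highest 2 of these sums came from ERalphaKO placebo replicate 3 and ERalphaKO E2 replicate 1, and for Cytl1, Chad, Adamts5, Cilp, Mef2c and Sost the values without both are given beside the result. The summed level of 12 skeletal muscle markers ranged from 9.20 to 55.2 CPM in ERalphaKO E2, 13.4 to 6298 CPM in ERalphaKO placebo, 241 to 1195 CPM in WT E2 and 7.98 to 2613 CPM in WT placebo. That of 8 osteoblast and osteocyte markers was 2754 to 3038 CPM in ERalphaKO E2 and 2061 to 2738 CPM in ERalphaKO placebo. In WT it was 2171 to 3258 CPM under E2 and 2564 to 2920 CPM under placebo.

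The promoters of 4 genes are shown because the results turn on them: Cytl1, Chad and Matn4 had the lowest p-values of those tested for E2 in WT, and Acan is the most counted of the 9 in most libraries. All 9 symbols had an entry among the RefSeq promoters of build GRCm38.p6. Each sequence runs 5′ to 3′ on the strand of its gene, from 250 bases before to 50 after the start, and Matn4 and Epyc had 2 starts listed, of which the outermost was taken. Capitals mark the estrogen response element half-site GGTCA, read as TGACC from the other strand, and the TATA box TATAAA. The Cytl1 window was chr5:37735269-37735568 on the plus strand, that of Chad was chr11:94564797-94565096 on the plus strand, that of Matn4 was chr2:164405111-164405410 on the minus strand, and that of Acan was chr7:79052976-79053275 on the plus strand.
Cytl1: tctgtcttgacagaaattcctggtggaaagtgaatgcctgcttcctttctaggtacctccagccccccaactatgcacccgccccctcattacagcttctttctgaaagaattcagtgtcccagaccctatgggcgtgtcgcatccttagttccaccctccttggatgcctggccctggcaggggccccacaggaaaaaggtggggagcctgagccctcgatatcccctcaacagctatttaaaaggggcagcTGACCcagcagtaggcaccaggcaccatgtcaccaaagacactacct
Chad: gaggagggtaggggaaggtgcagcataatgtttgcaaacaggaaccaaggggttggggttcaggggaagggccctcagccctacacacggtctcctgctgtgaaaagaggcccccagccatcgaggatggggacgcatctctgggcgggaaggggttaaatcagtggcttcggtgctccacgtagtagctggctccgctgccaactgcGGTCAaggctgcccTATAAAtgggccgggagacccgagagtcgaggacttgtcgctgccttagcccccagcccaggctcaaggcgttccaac
Matn4: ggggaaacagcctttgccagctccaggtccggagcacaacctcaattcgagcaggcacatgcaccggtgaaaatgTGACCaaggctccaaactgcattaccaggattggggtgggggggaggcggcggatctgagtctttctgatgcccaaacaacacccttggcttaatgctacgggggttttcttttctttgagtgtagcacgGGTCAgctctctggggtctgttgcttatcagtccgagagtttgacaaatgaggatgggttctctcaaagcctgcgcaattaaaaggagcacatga
Acan: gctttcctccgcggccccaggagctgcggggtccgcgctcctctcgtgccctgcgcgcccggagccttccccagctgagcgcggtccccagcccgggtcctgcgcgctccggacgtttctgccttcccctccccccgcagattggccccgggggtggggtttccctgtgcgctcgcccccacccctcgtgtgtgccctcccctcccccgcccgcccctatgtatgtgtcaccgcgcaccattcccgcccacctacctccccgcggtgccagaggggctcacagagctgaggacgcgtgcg

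In these 300-base windows Cytl1 had 1 half-site, 4 bases after the start and on the other strand, and Chad had 1 at position -42, upstream of a TATA box at position -28. Matn4 had 2 half-sites and Acan none. The marked motifs do not overlap one another. The half-site was found on either strand in 6 of the 9 windows (Matn1, Matn3, Matn4, Cytl1, Chad and Epyc), against 40.5% of all 32851 mouse promoters of this length. The full palindrome GGTCANNNTGACC, where N is any base, was in 0 of the 9 and in 0.07% of all. TATAAA was in 1 of the 9, that of Chad, and in 13.6% of all. The core ACAAT bound by SOX factors, searched on both strands, was in 2 of the 9, those of Hapln1 and Epyc, and in 31.0% of all. A match of letters is a description of the sequence and not a binding site.

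The 9 genes covered a wide range of levels. Per kilobase of exon, the median level over the 12 libraries was 238 CPM per kb for Chad, 173 for Acan, 116 for Hapln1 and 73.5 for Cytl1. Matn4 followed at 2.55 CPM per kb, Ucma at 0.908, Matn3 at 0.388, Epyc at 0.0396 and Matn1 at 0.0118. The ranges over libraries of neighbours in this order overlapped, except that every library had Cytl1 above the highest Matn4 level and Matn3 above the highest Epyc level. Within libraries, Chad stood above Acan per kilobase in 9 of 12, Acan above Hapln1 in 12 of 12 and Hapln1 above Cytl1 in 8 of 12. Of the 9 genes, the condyle of these mice thus held RNA of aggrecan, link protein, chondroadherin and Cytl1 at high levels. That of Ucma, epiphycan and the 3 matrilins Matn1, Matn3 and Matn4 was low.

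**Figure D1:**
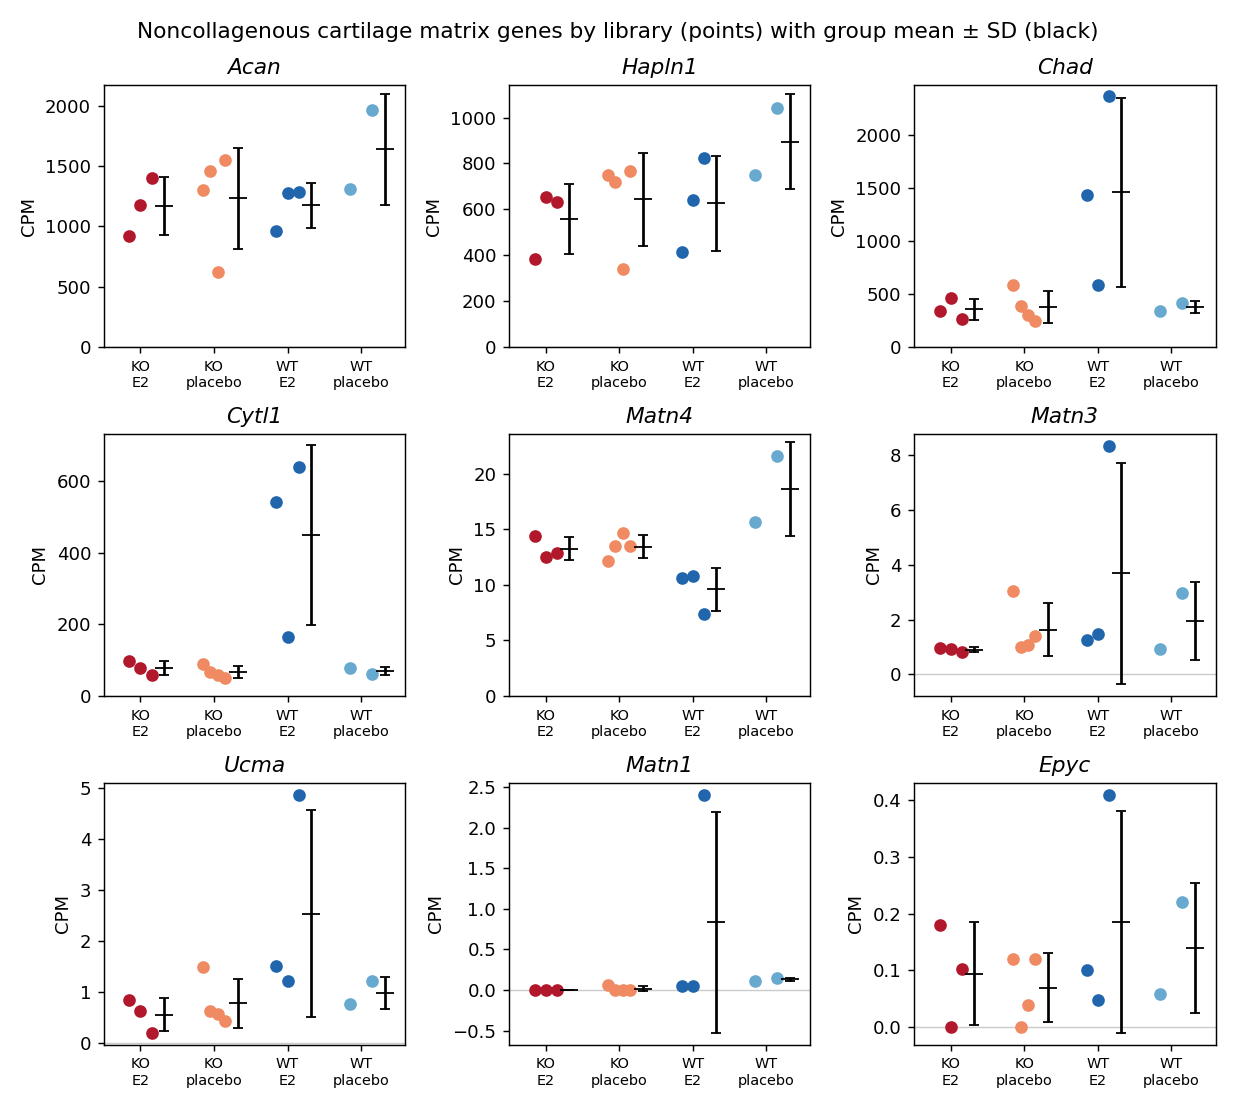
Level of each gene (CPM, linear axis) in every library, grouped from left to right as ERalphaKO (KO) E2 (n = 3), ERalphaKO placebo (n = 4), WT E2 (n = 3) and WT placebo (n = 2); points are libraries in the order of their replicate numbers and black bars are the group mean ± SD. Cytl1 is higher, and Matn4 lower, in the 3 WT E2 libraries than in each of the other 9. Chad is higher there too on this scale, but not when scaled by total counts alone. Hapln1 overlaps between the groups of each comparison. So does Acan, except that its WT E2 libraries lie just below both WT placebo libraries on this scale.

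Cytl1, which codes for a secreted cytokine-like protein of chondrocytes, was the one gene of the 9 that passed the test in any comparison. It stood at 97.3, 77.8 and 57.6 CPM in ERalphaKO E2 libraries 1 to 3 and at 89.1, 66.7, 59.3 and 49.8 CPM in ERalphaKO placebo libraries 1 to 4. In WT E2 libraries 1 to 3 it stood at 542, 166 and 641 CPM, and in both WT placebo libraries at 77.4 and 61.5 CPM. All 3 WT E2 libraries lay above the other 9, as they did for 2.3% of the 14832 genes tested, and replicate 2 was the lowest of the 3. Under E2, Cytl1 was 5.80-fold lower in ERalphaKO than in WT, on the log2 scale -2.54 ± 0.43 (SE, 95% interval -3.49 to -1.58, adjusted p = 0.0210 over 14832 genes, of which 1.1% passed). Under E2 in WT it was 6.48-fold above placebo, a log2 fold change of 2.70 ± 0.51 (SE, interval 1.57 to 3.82), and its adjusted p of 0.0570 did not pass the threshold of 0.05. In ERalphaKO the log2 fold change of E2 over placebo was 0.23 ± 0.38 (SE, interval -0.62 to 1.07, adjusted p = 0.997). The difference between the 2 E2 effects, ERalphaKO minus WT, was -2.47 ± 0.62 (SE) with an adjusted p of 0.353, and was therefore not called. The comparisons of E2 in WT, of genotype under E2 and of the E2 effects share the WT E2 libraries.

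The Cytl1 call between ERalphaKO and WT under E2 kept its direction in all 23 alternatives tried, with log2 fold changes from -2.93 to -2.19, and its side of the threshold in 14. It was lost without WT E2 replicate 1 (-2.38, adjusted p = 0.0785) or replicate 3 (-2.19, adjusted p = 0.0618), and without ERalphaKO E2 replicate 1 (-2.73, adjusted p = 0.0698), replicate 2 (-2.54, adjusted p = 0.0692) or replicate 3 (-2.36, adjusted p = 0.113). Without both libraries highest in granulocyte markers it was -2.72 with an adjusted p of 0.0718. Muscle markers under E2 were lower in ERalphaKO than in WT without overlap, and with their level as a covariate the Cytl1 difference was -2.73 with an adjusted p of 0.0404. The summed level of 8 macrophage markers was 621 to 750 CPM in ERalphaKO E2 and 709.7 to 1141 CPM in WT E2 libraries. These sums overlapped. The markers' mean log2 level did not, at 5.71 to 5.86 in ERalphaKO E2 and 5.99 to 6.61 in WT E2. The median log2 fold change of the 8, ERalphaKO over WT under E2, was -0.82, and 1 of them was positive. The part of macrophage RNA in the Cytl1 result was not tested. The 6 cartilage collagens summed to between 3589 and 5454 CPM in ERalphaKO E2 and between 6421 and 20108 CPM in WT E2. With their mean log2 level as a covariate the difference in Cytl1 was -2.20 with an adjusted p of 0.163. In whole tissue, fewer cells of a type and less RNA per cell cannot be told apart.

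Chad, coding for chondroadherin, had a pattern over the groups close to that of Cytl1. It stood at 337, 459 and 267 CPM in ERalphaKO E2 libraries 1 to 3 and at 581, 384, 299 and 247 CPM in ERalphaKO placebo libraries 1 to 4. In WT E2 libraries 1 to 3 it reached 1434, 583 and 2364 CPM, and in WT placebo libraries 1 and 2 it stood at 337 and 417 CPM. WT E2 replicates 1 and 3 lay far above all others, whereas replicate 2 was level with ERalphaKO placebo replicate 1, above it on this scale and below it when scaled by total counts alone (572 and 589 CPM). Under E2 the log2 fold change of ERalphaKO over WT was -2.04 ± 0.46 (SE, interval -3.07 to -1.02), 4.12-fold lower, with an adjusted p of 0.0722 that missed the threshold. In WT the log2 fold change of E2 over placebo was 1.95 ± 0.54 (SE, adjusted p = 0.247), and in ERalphaKO it was -0.09 ± 0.42 (SE, adjusted p = 1). DESeq2 in place of edgeR called 491 of all genes for genotype under E2 and 246 for E2 in WT, against 163 and 68. With it, Chad passed both under E2 between genotypes (-2.03, adjusted p = 0.00224) and for E2 in WT (1.95, adjusted p = 0.0253). Without WT E2 replicate 2 it passed them with edgeR too (-2.42, adjusted p = 0.0136, and 2.33, adjusted p = 0.0385). For genotype under E2 its difference was -1.51 without WT E2 replicate 3 (adjusted p = 0.209), -1.26 with the cartilage collagen covariate (adjusted p = 0.355), -1.99 without both libraries highest in granulocyte markers (adjusted p = 0.220) and -1.99 with the replicate number as a block (adjusted p = 0.199). Chad lies within the span of Acsf2, a gene on the opposite strand that shares no exon base with it in GENCODE M21, and Acsf2 averaged 16.4 CPM in ERalphaKO E2, 17.2 in ERalphaKO placebo, 21.1 in WT E2 and 19.4 in WT placebo libraries.

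Because Chad and Cytl1 were high in WT E2 while Acan and Hapln1 were not, the make-up of the counts of the 9 genes differed in that group. Acan made up 53.6% ± 4.95 of them in ERalphaKO E2, 52.0% ± 6.05 in ERalphaKO placebo, 33.7% ± 12.2 in WT E2 and 54.3% ± 2.31 in WT placebo libraries (SD, n = 3, 4, 3 and 2). Chad made up 16.6% ± 4.62, 16.9% ± 6.08, 36.8% ± 13.2 and 12.7% ± 1.16 of them in the same order of groups. WT E2 replicate 2 was nearer to the other groups, with 47.6% from Acan and 21.7% from Chad. The ratio of Cytl1 counts to Acan counts was 0.0410 to 0.106 in ERalphaKO E2, 0.0321 to 0.0956 in ERalphaKO placebo, 0.130 to 0.566 in WT E2 and 0.0313 to 0.0590 in WT placebo libraries, so the WT E2 libraries lay above the other 9 in this ratio. The ratio of Chad to Acan overlapped between groups, with 0.191 to 0.391 in ERalphaKO E2, 0.159 to 0.482 in ERalphaKO placebo, 0.457 to 1.84 in WT E2 and 0.213 to 0.257 in WT placebo libraries. Set against Col2a1, by contrast, the groups under E2 overlapped: log2 Cytl1 minus log2 Col2a1 lay between -5.04 and -3.57 in ERalphaKO E2 and between -4.60 and -3.34 in WT E2. For Chad this difference lay between -2.62 and -1.78 in ERalphaKO E2 and between -2.79 and -1.94 in WT E2. In WT placebo both differences lay below those of WT E2, between -6.86 and -5.58 for Cytl1 and between -4.10 and -3.46 for Chad. In ERalphaKO placebo they lay between -5.67 and -4.95 for Cytl1 and between -3.05 and -2.62 for Chad.

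**Figure D2:**
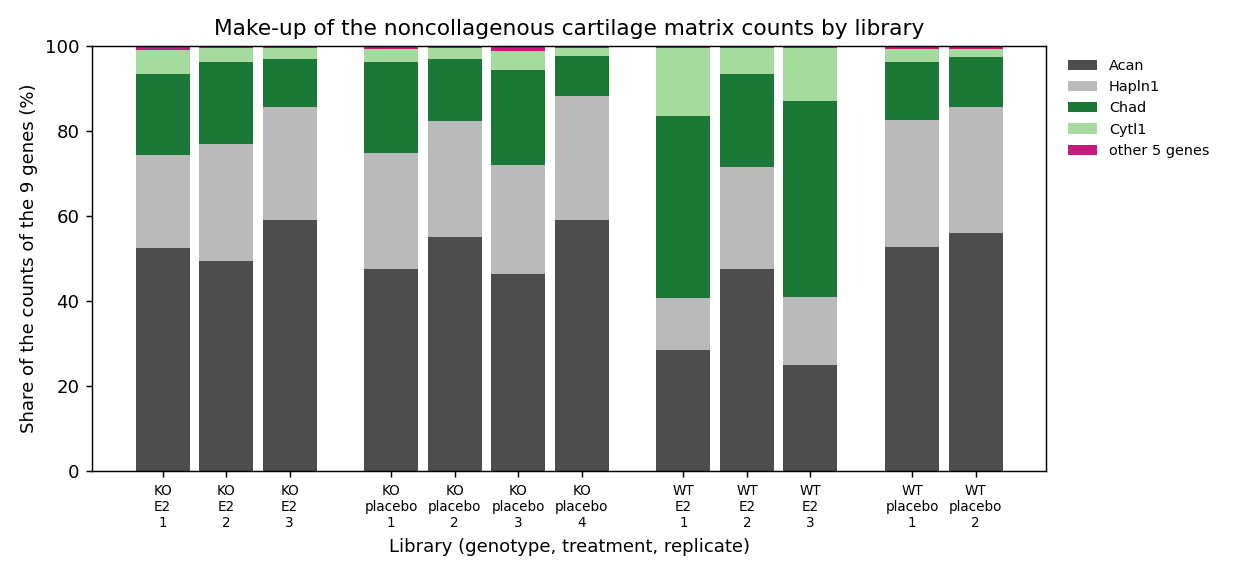
Share of the summed counts of the 9 genes (percent, stacked bars from 0 to 100) taken by Acan, Hapln1, Chad, Cytl1 and the other 5 genes in each library, with groups from left to right as ERalphaKO (KO) E2, ERalphaKO placebo, WT E2 and WT placebo. Chad takes 21.7% to 46.0% in WT E2 libraries and 9.40% to 22.4% in the other 9.

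Acan and Hapln1, the proteoglycan and its link protein, did not pass the test in any comparison. Acan stood at 920.3, 1175 and 1403 CPM in ERalphaKO E2 libraries 1 to 3, and at 1299, 1459, 620.4 and 1549 CPM in ERalphaKO placebo libraries 1 to 4. It stood at 959, 1277 and 1284 CPM in WT E2 libraries 1 to 3 and at 1311 and 1962 CPM in WT placebo libraries 1 and 2. The WT E2 libraries lay just below both WT placebo libraries on this scale, though not when scaled by total counts alone, where WT E2 replicate 3 had 1300.0 CPM and WT placebo replicate 1 had 1282 CPM. ERalphaKO placebo replicate 3, the library highest in granulocyte markers, was the lowest of all. In WT the log2 fold change of E2 over placebo was -0.48 ± 0.34 for Acan (SE, interval -1.23 to 0.27, adjusted p = 0.797) and -0.51 ± 0.38 for Hapln1 (SE, interval -1.35 to 0.32, adjusted p = 0.804). Under E2 the log2 fold change of ERalphaKO over WT was -0.0091 ± 0.31 for Acan (SE, interval -0.69 to 0.67) and -0.17 ± 0.34 for Hapln1 (SE, interval -0.92 to 0.58).

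Hapln1 stood at 382, 655 and 634 CPM in ERalphaKO E2 libraries 1 to 3 and at 750.3, 719.9, 766 and 341 CPM in ERalphaKO placebo libraries 1, 2, 4 and 3. In WT it stood at 412, 643 and 825 CPM in E2 libraries 1 to 3, and at 748 and 1043 CPM in placebo libraries 1 and 2. In each of the 4 groups, the library lowest in Acan was also the lowest in Hapln1. Over the 12 libraries the log2 levels of both genes had a Pearson r of 0.925 (permutation p = 4e-05, 0.00072 adjusted over 36 pairs of the 9 genes) and a Spearman rho of 0.762 (permutation p = 0.00539, adjusted 0.0408). Without the 2 libraries farthest from the median in Acan r was 0.876, and after subtraction of the group means it was 0.918. Both genes are read from the same libraries and share their tissue make-up and depth. The count ratio of Hapln1 to Acan varied between 0.415 and 0.643, while that of Chad to Acan varied between 0.159 and 1.84. For Cytl1 and Chad, WT E2 replicates 1 and 3 lie far above the other libraries in both genes, so no r over all 12 is given. After subtraction of the group means their r was 0.884, a value that the wide spread among the WT E2 libraries enters. Within the other 9 libraries r was 0.645 (exact permutation p = 0.0612, 0.321 adjusted over 21 pairs) and rho 0.733 (exact permutation p = 0.0311, adjusted 0.163), a relation that did not pass.

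**Figure D3:**
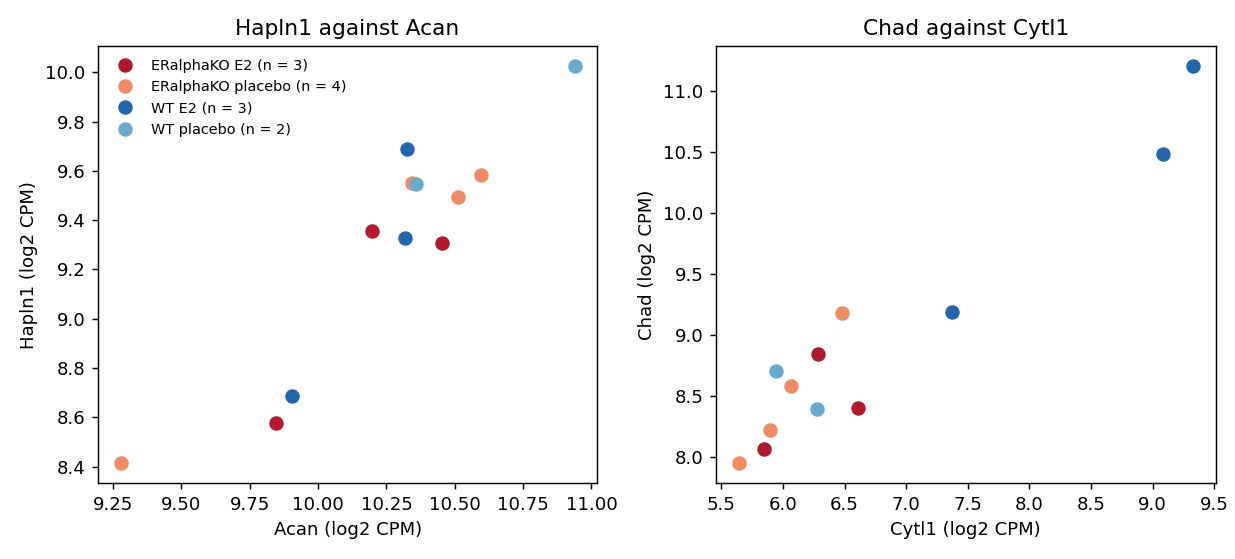
Log2 CPM of Hapln1 against Acan (left) and of Chad against Cytl1 (right), 1 point per library, coloured by group with ERalphaKO in reds and WT in blues. Acan and Hapln1 follow each other over all 12 libraries (r = 0.925) with groups mixed, whereas WT E2 replicates 1 and 3 lie apart at the upper right for Cytl1 and Chad, with replicate 2 nearer to the rest.

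Among the matrilins of the 9 genes, Matn4 was the most abundant per kilobase. Matn2, a matrilin outside the 9, stood far above it in counts, between 396 and 670 CPM over all libraries. Matn4 was the only gene of the 9 whose WT E2 libraries lay below all others, as they did for 1.53% of genes tested. It stood at 14.5, 12.5 and 12.9 CPM in ERalphaKO E2 libraries 1 to 3 and at 12.1, 13.5, 14.7 and 13.5 CPM in ERalphaKO placebo libraries 1 to 4. In WT E2 libraries 1 to 3 it stood at 10.6, 10.8 and 7.37 CPM, against 15.7 and 21.6 CPM in WT placebo libraries 1 and 2. The ERalphaKO libraries of either treatment lay between the WT groups on this scale. When scaled by total counts alone, ERalphaKO placebo replicate 3 (15.5 CPM) stood above WT placebo replicate 1 (15.3 CPM). In WT the log2 fold change of E2 over placebo was -0.96 ± 0.18 (SE, interval -1.36 to -0.55), with an adjusted p of 0.0587 that missed the threshold. In ERalphaKO it was -0.02 ± 0.16 (SE, interval -0.36 to 0.33, adjusted p = 1). ERalphaKO over WT gave 0.47 ± 0.17 under E2 (SE, adjusted p = 0.296) and -0.47 ± 0.17 under placebo (SE, adjusted p = 0.472), and the difference of the E2 effects was 0.94 ± 0.24 (SE, adjusted p = 0.359). Matn4 shares 149 exon bases with Rbpjl on the opposite strand in GENCODE M21, and Rbpjl had at most 4 counts in any library.

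Matn3, a matrilin of growth cartilage, and Ucma, a secreted protein of early chondrocytes, were low, and 1 library set much of their group difference. Matn3 stood at 0.964, 0.946 and 0.818 CPM in ERalphaKO E2 libraries 1 to 3, at 3.05, 0.992, 1.08 and 1.41 CPM in ERalphaKO placebo libraries 1 to 4, at 1.25, 1.46 and 8.35 CPM in WT E2 libraries 1 to 3, and at 0.939 and 2.97 CPM in WT placebo libraries 1 and 2. Ucma stood at 0.843, 0.631 and 0.204 CPM in ERalphaKO E2, at 1.50, 0.631, 0.581 and 0.442 CPM in ERalphaKO placebo, at 1.51, 1.22 and 4.87 CPM in WT E2 and at 0.763 and 1.21 CPM in WT placebo libraries, in the same order. WT E2 replicate 3 was the highest library for both, and was also the highest in the summed cartilage collagens at 20108 CPM. Under E2 the log2 fold change of ERalphaKO over WT was -2.02 ± 0.78 for Matn3 (SE, adjusted p = 0.342) and -2.19 ± 0.70 for Ucma (SE, adjusted p = 0.221). Without WT E2 replicate 3 these values were -0.58 and -1.31, and the log2 fold change of Matn3 with E2 in WT was -0.54, against 0.89 ± 0.82 (SE) with it. With the cartilage collagen covariate the difference between genotypes under E2 was -0.058 for Matn3 and -0.97 for Ucma. In ERalphaKO the E2 libraries lay below the placebo libraries in Matn3 by -0.83 ± 0.74 on the log2 scale (SE, adjusted p = 0.991).

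Matn1 and Epyc were too low to be tested in the main fit. Matn1, the first cartilage matrilin to be described, had 0 counts in all 3 ERalphaKO E2 libraries and 1, 0, 0 and 0 counts in ERalphaKO placebo libraries 1 to 4. It had 1, 1 and 47 counts in WT E2 libraries 1 to 3 and 2 and 4 counts in both WT placebo libraries. Of its 56 counts, 47 thus came from WT E2 replicate 3, the library with the most Matn3, Ucma and cartilage collagen. A count of 0 allows up to 3 counts, or 0.153 to 0.315 CPM in the ERalphaKO E2 libraries, a limit that covers counting error only. Epyc had 3, 0 and 2 counts in ERalphaKO E2, 2, 0, 1 and 3 in ERalphaKO placebo, 2, 1 and 8 in WT E2 and 1 and 6 in WT placebo libraries. The main fit therefore gives no group difference for either gene. Both were included in DESeq2 and in edgeR with no filter on low counts, and neither was called there in any comparison.

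For E2 over placebo in WT, 0 of the 7 genes tested passed the threshold, where 0.458% of the 14832 genes tested did. At an unadjusted p under 0.05 there were 3, namely Cytl1 and Chad higher and Matn4 lower, where 8.14% of all genes were. DESeq2 called those 3 at an adjusted p under 0.05, among 246 of all 23284 genes, against 68 called with edgeR. The WT E2 libraries lay above both WT placebo libraries without overlap for Cytl1, Chad and Ucma, as they did for 13.2% of all genes, and below them for Acan and Matn4, as for 13.7%. Scaled by total counts alone they lay above for the same 3 genes, as for 20.8% of all genes, and below for Matn4 only, as for 7.77%. Against the other 9 libraries together, the WT E2 libraries lay above for Cytl1 and Chad, as for 2.3% of genes, and below for Matn4, as for 1.53%, of which Chad was lost with total counts alone. The median log2 fold change of the 7 was 0.89, against -0.0043 over all genes tested. That median is the value of Matn3, which rests on 1 library.

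For E2 over placebo in ERalphaKO, edgeR called 0 of the 7 genes and 0% of all genes, and DESeq2 called 0 of the 7 and 0 of all genes as well. At an unadjusted p under 0.05 there were 0 of the 7 and 5.7% of all genes. The ERalphaKO E2 libraries did not lie above the placebo libraries for any of the 7, where 2.58% of all genes did, and lay below them for Matn3, as for 3.09%. The median log2 fold change of the 7 was -0.09, against 0 over all genes.

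Under placebo, ERalphaKO over WT had 0 of the 7 genes past the threshold in edgeR and in DESeq2. Of all genes, edgeR called 2 (0.0135%) and DESeq2 151 of 23284. One gene, Matn4, was below an unadjusted p of 0.05, where 8.93% of all genes were, and it was also the one whose ERalphaKO libraries lay below both WT libraries, as for 10.6% of genes, while none of the 7 lay above, as 10.5% did. With total counts alone Matn4 overlapped there too. Under E2, ERalphaKO over WT had 1 of the 7 past the threshold, Cytl1 lower, where 1.1% of all genes passed in either direction. At an unadjusted p under 0.05 there were 5 (Matn3, Cytl1, Ucma and Chad lower, Matn4 higher), where 11.5% of all genes were. The same 4 lay below WT without overlap, as for 8.94% of genes, and Matn4 above, as for 6.97%. The median log2 fold change of the 7 was -0.36 under placebo and -2.02 under E2, against 0.010 and -0.0031 over all genes. These medians are the values of Ucma and Matn3. The Matn3 value under E2 rests largely on WT E2 replicate 3, without which it was -0.58.

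The E2 effects of ERalphaKO and WT differed past the threshold for 0 of the 7 genes in edgeR, where 0.0539% of all genes did. With DESeq2 they did for Cytl1, among 101 of all 23284 genes called, against 8 with edgeR. At an unadjusted p under 0.05 there were 3 of the 7, Cytl1 and Chad with a lower and Matn4 with a higher difference, where 6.78% of all genes were.

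**Figure D4:**
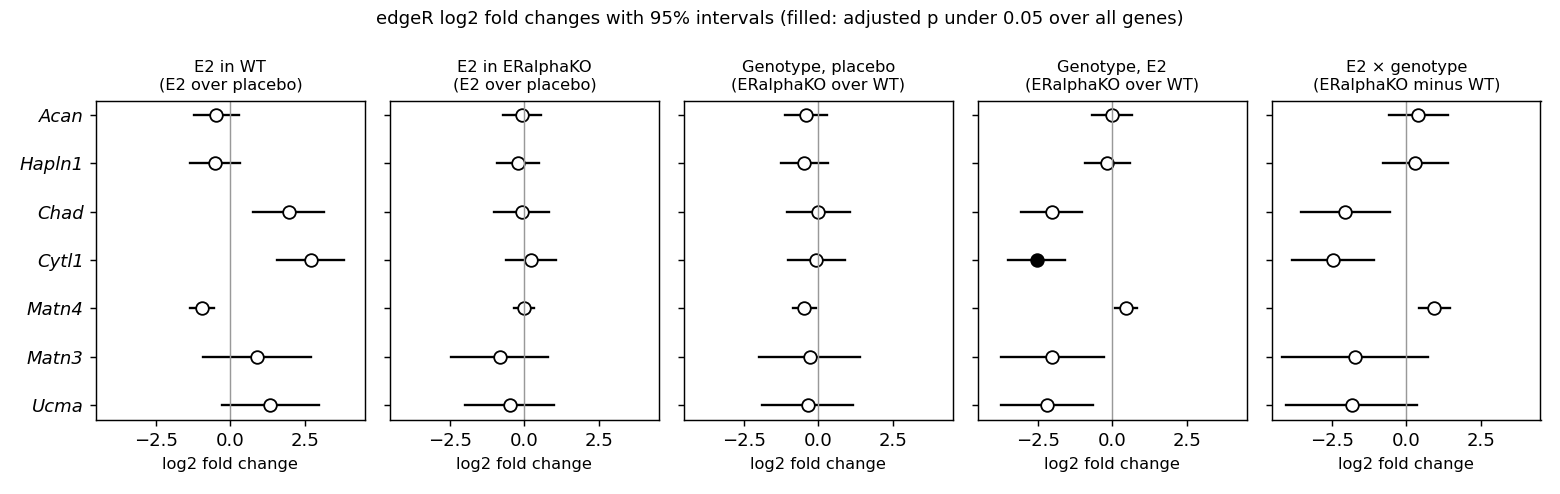
Log2 fold change (points) with its 95% interval (lines) from edgeR for the 7 genes tested, in 5 panels: E2 over placebo in WT and in ERalphaKO, ERalphaKO over WT under placebo and under E2, and the E2 effect in ERalphaKO minus that in WT. The 1 filled point, Cytl1 under E2, has an adjusted p under 0.05 over all genes tested.

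The authors' deposited tables of these comparisons give adjusted p-values of their own. In the authors' deposited table for E2 in WT, Cytl1 had 1.77 ± 0.48 on the log2 scale (SE, adjusted p = 0.0163) and Matn4 one of -0.90 ± 0.25 (SE, adjusted p = 0.0286), 2 of 8 genes with an adjusted p, where 1.75% of all genes had one under 0.05. In the authors' deposited table for genotype under E2, Cytl1 had -2.08 ± 0.48 (SE, adjusted p = 0.00105) and Chad -1.71 ± 0.47 (SE, adjusted p = 0.0102), 2 of 6 genes with an adjusted p, where 3.75% of all genes passed. The authors' deposited tables on genotype under placebo and on E2 in ERalphaKO had 0 of the 9 genes under 0.05, where 1.82% and 0.0494% of all genes were.

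Of the genes that act on or beside these proteins, a protease that cuts aggrecan passed the test while aggrecan's own RNA did not. Adamts5, an aggrecanase, stood at 50.5, 63.5 and 44.9 CPM in ERalphaKO E2 libraries 1 to 3 and at 62.5, 44.2, 52.3 and 47.1 CPM in ERalphaKO placebo libraries 1 to 4. In WT E2 libraries 1 to 3 it stood at 108, 93.6 and 107 CPM, against 57.0 and 48.9 CPM in WT placebo libraries 1 and 2. It was higher with E2 in WT (log2 fold change 0.96 ± 0.17, SE, adjusted p = 0.0437), where 0.458% of all genes passed. It was lower in ERalphaKO than in WT under E2 (-0.96 ± 0.15, SE, adjusted p = 0.0138), where 1.1% passed. The groups did not overlap in either, as for 13.2% of all genes in the first and 8.94% in the second in the same direction. The direction held in all 23 alternatives of each, and the threshold in 10 for E2 in WT (adjusted p 2.24e-05 to 0.489) and in 16 for genotype under E2 (7.31e-07 to 0.0973). For E2 in WT the call was lost on leaving out WT placebo replicate 1 (adjusted p = 0.266) or 2 (0.489), WT E2 replicate 1 (0.159) or 3 (0.126), ERalphaKO E2 replicate 1 (0.0724) or 3 (0.0584), or ERalphaKO placebo replicate 2 (0.0614), 3 (0.0542) or 4 (0.0766). For genotype under E2 it was lost without WT E2 replicate 1 (0.0649) or 3 (0.0516) or ERalphaKO E2 replicate 1 (0.0783) or 3 (0.0723). Both calls were also lost without both libraries highest in granulocyte markers (0.0783 in the treatment and 0.0791 in the genotype comparison) and with the replicate block (0.183 and 0.0606), the first with upper-quartile scaling (0.0547) or only the 2 groups in the fit (0.0977), and the second with the cartilage collagen covariate (0.0973). The other 8 of the 9 aggrecan-cleaving proteases and inhibitors did not pass in any of the 5 comparisons.

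Under E2, Cilp, a matrix protein of the middle zone of articular cartilage, was lower in ERalphaKO than in WT as Cytl1 was. It averaged 382 ± 64.1 CPM in ERalphaKO E2 and 1243 ± 344 CPM in WT E2 (SD, n = 3 each), on the log2 scale a difference of -1.70 ± 0.29 (SE, adjusted p = 0.0224). It was the 1 gene of 13 tested noncollagenous chondrocyte proteins outside the 9 that passed, where 1.1% of all genes did, and their median log2 fold change was -0.94. Comp, which codes for a matrix protein that binds collagen, had -1.11 ± 0.37 (SE, adjusted p = 0.249), and Prg4, the lubricant of the joint surface, -1.37 ± 0.50 (SE, adjusted p = 0.304). Of 8 genes of hypertrophic chondrocytes 1 passed as lower, the transcription factor gene Mef2c, at -0.43 ± 0.08 (SE, adjusted p = 0.0354). Of 8 osteoblast and osteocyte markers 1 passed, Sost, an osteocyte gene that codes for the Wnt inhibitor sclerostin, at -2.02 ± 0.35 (SE, adjusted p = 0.0211). Cilp, Mef2c and Sost kept their direction in all 23 alternatives and their side of the threshold in 16, 9 and 14. Each lost its call without WT E2 replicate 1 (-1.60, -0.44 and -1.77) or 3 (-1.57, -0.38 and -1.96) and without ERalphaKO E2 replicate 1 (-1.75, -0.42 and -2.03) or 3 (-1.57, -0.43 and -1.79), in the order Cilp, Mef2c, Sost. Cilp and Mef2c also lost it without ERalphaKO E2 replicate 2 (-1.80 and -0.45), and Mef2c without ERalphaKO placebo replicate 2 or 4 or either WT placebo library, where it stayed at -0.43. All 3 calls were lost without both libraries highest in granulocyte markers (adjusted p = 0.0826, 0.0791 and 0.0768) and with the cartilage collagen covariate (0.157, 0.213 and 0.107), in that order. Mef2c and Sost were also lost with the muscle covariate (0.131 and 0.0676), with only the 2 groups in the fit (0.106 and 0.0785) and with the replicate block (0.112 and 0.0780).

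None of the 6 cartilage collagens, the 7 chondrocyte transcription factors, the 9 tested genes of the hyaluronan network and the 9 fibrous matrix genes passed in any comparison. Under E2 the median log2 fold change of the collagens, ERalphaKO over WT, was -1.72, with Col2a1 at -2.18 ± 0.54 (SE, adjusted p = 0.105). Col2a1 stood at 1156, 2568 and 1647 CPM in ERalphaKO E2 libraries 1 to 3 and at 5490.3, 4034 and 14781 CPM in WT E2 libraries 1 to 3, with no overlap. Sox9 gave -0.04 ± 0.34 (SE, adjusted p = 0.984) in that comparison. Vcan, which codes for versican, the hyaluronan-binding relative of aggrecan in fibrous tissue, averaged 151 ± 25.5 CPM in ERalphaKO E2 and 75.6 ± 23.7 CPM in WT E2 (SD, n = 3 each), on the log2 scale a difference of 1.00 ± 0.25 (SE, adjusted p = 0.115).

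Over the 12 libraries, each of the matrix genes averaging 1 CPM or more was set beside all other genes averaging 5 CPM or more, and the 5 with the highest Pearson r of log2 CPM were taken, which by this choice are high. For Cytl1 these were Lifr, Cst3, Stab1, Agt and Cx3cr1 (r from 0.971 to 0.986), and for Chad they were Tmem62, Stab1, Lifr, Gdpd2 and Ntn4 (0.944 to 0.968). WT E2 replicates 1 and 3 are the highest libraries of both genes, and after subtraction of the group means the r values were 0.833 to 0.943 for Cytl1 and 0.814 to 0.934 for Chad. Stab1 and Lifr stood in both sets. For Hapln1 they were Slc44a2, Rab11fip4, Camkk1, Leprel1 and Wscd2 (0.930 to 0.946). Matn4 had Luzp2, Igf1, Kera, Atf4 and Fabp5 (0.899 to 0.946), Ucma had Swap70, Stc2, Aldh5a1, Htra4 and Ntn4 (0.887 to 0.918), and Matn3 had Ddb2, Pim3, Chrdl1, Fzd4 and Prkg2 (0.879 to 0.907). The mean pattern of the 7 genes at that level was closest to that of Col2a1 (0.934), followed by Swap70, Stc2, Comp and Ntn4 (0.913 to 0.930).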

How the data were processed

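The submitters' processing notes name bcl2fastq 2.17, TopHat and mouse build mm9. The counting tool, gene models and library strand are not given in the sources used here. Deposited by the authors were raw counts for 23284 gene symbols in 12 libraries, and comparison tables with log2 fold changes and p-values. The fold changes and p-values of those tables are quoted as the authors' own. Groups were taken from genotype and agent in the labels. Here the counts were fitted in edgeR 4.0.16 (R 4.3.3) with TMM scaling, the group-wise filter at a minimum count of 10 (14832 genes kept, 7 of the 9 among them), 1 mean per group over all libraries (8 residual degrees of freedom, biological coefficient of variation 25.9%) and the quasi-likelihood test, with Benjamini-Hochberg adjustment over all genes tested and a threshold of 0.05. Standard errors were computed back from the F statistic, and log2 CPM used a prior count of 2. DESeq2 1.42.0 and limma 3.58.1 served for alternatives.

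Exon lengths and overlaps came from GENCODE M21 (GRCm38) by symbol, and promoters from RefSeq GRCm38.p6. Correlations used 100000 permutations, or exact ones for 9 libraries. The edgeR filter, scaling, fit and test were tried on simulated counts, and the other steps were not. Libraries of the same group were compared for duplicates, and none agreed within sampling noise. Libraries of different groups were not compared in this way. Named genes were the 9, the 5 most like each of them, and from other lists those past the threshold or otherwise up to 2 of the most counted, with Col2a1, Sox9, Prg4 and Esr1 as checks. The genes most like Acan are not reported here. The genes and lists were chosen with earlier results of these data known. Depths of 9.70 to 28.8 M counts set 3 counts at 0.315 to 0.110 CPM. Alternatives are in the closing section.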

Additional observations from a re-analysis of the deposited data

Results flagged for a closer look

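In ERalphaKO placebo libraries, the only group with 4 samples, the level of each of the 9 genes was examined for a library far from the rest, which chance flags about 1 time in 20. Hapln1 stood at 341 CPM in ERalphaKO placebo replicate 3, and the gap to the next library, at 719.9 CPM, was 0.892 of the range of the group. That library was also the highest in granulocyte markers, with a mean log2 level of 9.52, and the part of this in the Hapln1 value was not tested. Matn1 stood at 0.0598 CPM in ERalphaKO placebo replicate 1, where 1 count was found against 0 in the other libraries of the group, a gap that is the whole range. With all others at 0, any count gives that gap, so the chance rate above does not apply to Matn1.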

How the results depend on the processing

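Each of the 35 combinations of a tested gene and a comparison was recomputed, in 798 alternatives in all: 732 kept direction and side of the threshold, 16 gained the threshold, 9 lost it and 41 turned direction. The 9 are all Cytl1 for genotype under E2. Besides the 5 libraries named with that result, the call was lost with only the 2 groups in the fit (-2.53, adjusted p = 0.0967), with the replicate block (-2.46, adjusted p = 0.0633), and, in alternatives added after the data were seen, with the cartilage collagen covariate (-2.20) and without both libraries highest in granulocyte markers (-2.72).

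The number of the 7 genes called for E2 in WT was 0, but 3 with DESeq2, 2 with limma voom weights (Matn4 and Cytl1), and 1 with no filter on low counts (Cytl1), the granulocyte covariate (Cytl1), the muscle covariate (Matn4) or the collagen covariate (Matn4), and 0 to 2 when each library was left out in turn. For genotype under E2 it was 1, but 2 with DESeq2 or voom (Cytl1 and Chad), 0 with only the 2 groups, with the replicate block, with the collagen covariate or without both granulocyte-high libraries, and 0 to 2 with a library left out. For the difference of E2 effects it was 0, but 1 with DESeq2 and 0 to 1 with a library left out, and in both other comparisons 0 throughout. The background moved as well. Over all genes, E2 in WT had 68 calls, against 246 with DESeq2, 169 with voom, 40 with the muscle covariate, 18 with the block and 7 with only the 2 groups. Genotype under E2 had 163, against 491 with DESeq2, 368 with voom, 92 with the muscle covariate, 70 without both granulocyte-high libraries, 66 with only the 2 groups, 62 with the block and 47 with the collagen covariate. Genotype under placebo had 2, against 151 with DESeq2, 57 without both granulocyte-high libraries, 5 with the granulocyte covariate and 4 with voom. The difference of E2 effects had 8, against 101 with DESeq2, 40 with the granulocyte covariate, 30 with voom, 12 without both granulocyte-high libraries, 3 with the block and 0 with the muscle covariate. With a library left out the counts were 1 to 131, 51 to 236, 1 to 4 and 0 to 31 in that order, and E2 in ERalphaKO had 0 in all.

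None of the values that turned direction was called before or after, and the cause was not tested. Outside Matn3 they reached at most 0.33 in size. For genotype under E2, Acan gave 0.13 with the granulocyte covariate, 0.15 with voom, 0.25 with the collagen covariate and 0.15 without both granulocyte-high libraries, and Hapln1 gave 0.075 with voom, 0.33 with the collagen covariate and 0.051 without those libraries. For genotype under placebo, Chad gave -0.00057 with upper-quartile scaling, -0.00064 with no filter and -0.13 with voom. Cytl1 gave 0.023 with the block, 0.015 with the muscle covariate and 0.11 with the collagen covariate, with which Matn3 gave 0.86 and Ucma 0.30. For E2 in ERalphaKO, Acan gave 0.067 with the block and 0.011 with the collagen covariate, Chad 0.18 with the collagen covariate, Matn4 0.17 with the muscle covariate and Cytl1 -0.021 without both granulocyte-high libraries. With each library left out in turn the ranges were, for E2 in ERalphaKO, -0.30 to 0.065 for Acan, -0.32 to 0.20 for Chad and -0.085 to 0.026 for Matn4. For genotype under placebo they were -0.27 to 0.16 for Chad, -0.24 to 0.10 for Cytl1, -0.88 to 0.78 for Matn3 and -0.84 to 0.017 for Ucma. For genotype under E2 they were -0.16 to 0.14 for Acan and -0.40 to 0.078 for Hapln1, and for E2 in WT -0.54 to 1.96 for Matn3.

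Correlations between libraries of different groups were taken after subtraction of the group means. Same-numbered libraries had -0.33 to 0.50 (median 0.20), with 9 of 15 pairs over 0.1. Pairs with unlike numbers had -0.50 to 0.52 (median -0.034), with 14 of 38 over 0.1. Of 12 libraries, 6 were closest to one with their own number. The labels do not say that equal numbers are pairs, so the main fit has no pairing. The replicate block was an alternative, with which the Cytl1 call for genotype under E2 was lost. When scaled by total counts alone, 35 of 36 group means moved by less than 1 SD, and the other, Matn1 in ERalphaKO E2, was 0 either way. With that scaling, added after the data were seen for the overlap of groups, the separations of Acan for E2 in WT, of Matn4 for genotype under placebo and of Chad against the other 9 libraries were lost, and those of the other genes named remained. Depth limits Matn1 and Epyc, and Matn3 and Ucma with 9 to 163 and 4 to 95 counts. WT placebo holds 2 libraries, so leaving one out assumes that the other varies like the rest.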
